A study of Mus musculus with 37 samples.

Results

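The levels of 6 protein-coding mouse genes were followed here, namely Fam217a, Pdzph1, Prlr, Nckap5, Lcp2 and Cyp19a1, 6 of the 55401 genes listed for each library. They were chosen by name because their levels were low in oocytes that had lost the deubiquitinase gene Bap1. The values of fully grown oocytes, mature eggs and late 1-cell embryos chose them, so those values are given as a description with no test. In fully grown oocytes the mean level in the knockout was 3.72% of the control mean for Fam217a, 3.70% for Prlr, 5.11% for Pdzph1, 5.92% for Nckap5 and 10.4% for Lcp2. Cyp19a1 kept 29.3% of its control level, so it was lower in the knockout but not nearly silent there.

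Per the labels, control females were Bap1 flox/flox, and knockout females carried Gdf9-iCre on the same Bap1 flox/flox background, so the floxed alleles were shared by both groups. Gdf9-iCre is a transgene whose Cre recombinase is driven by the promoter of the oocyte gene Gdf9. Fully grown oocytes (FGO), metaphase II eggs (MII), late 1-cell (L1C) and late 2-cell (L2C) embryos have 2 libraries from controls and 3 from knockouts. For early 2-cell embryos (E2C) there are 3 per genotype. Embryos of these stages came from crosses of the 2 kinds of female with B6. Those of embryonic day 6.5 came from crosses with PWK and were split into epiblast (EPI) and visceral endoderm (VE), with 2 control and 2 knockout libraries each, and extraembryonic ectoderm (EXE), with 1 control and 2 knockout libraries. An embryo labelled as knockout is therefore a maternal knockout, with its other parent from a line not labelled as floxed. The labels give no ages and do not say that the libraries of a group came from separate animals, so p-values measure only the spread between these samples.

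BAP1 is the enzyme that removes the single ubiquitin that Polycomb repressive complexes place on histone H2A, a mark tied to gene repression. An oocyte that has finished growing makes very little new RNA. Its stored transcripts are carried through maturation and fertilization and are cleared while the embryonic genome becomes active in the 2-cell embryo. The measured levels do not tell stored from newly made RNA.

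The level of Bap1 itself separated the groups as the labels state in the early libraries. Its FPKM (a read level scaled to gene length and library total) lay between 16.3 and 29.9 in the 11 control libraries from oocyte to late 2-cell embryo and between 3.76 and 11.7 in the 15 knockout libraries. Within knockout embryos Bap1 rose from early to late 2-cell by 0.55 ± 0.15 (SE) on the log2(FPKM + 1) scale (limma, Benjamini-Hochberg adjusted p = 0.00445). At embryonic day 6.5 the knockout libraries no longer read lower, at 18.3 to 33.8 FPKM against 14.02 to 22.6 FPKM in controls. The 26 early libraries summed to between 300668 and 430784 FPKM and listed 10353 to 11942 genes at 1 FPKM or more. One RNA gene, Gm23935, took 5.98% to 23.1% of that sum, and the lowest correlation between libraries of a group was 0.963.

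The genes lie on 6 different chromosomes. In GENCODE M21 (GRCm38) Fam217a spans chr13:34909960-34924310 on the minus strand and Pdzph1 spans chr17:58878808-58991375 on the minus strand. Prlr spans chr15:10177238-10349180 on the plus strand, and Nckap5 spans chr1:125913620-126830799 on the minus strand. Lcp2 lies at chr11:34046920-34092295 on the plus strand and Cyp19a1 at chr9:54165937-54268110 on the minus strand. Since the 6 genes were low together, the 250 bases before the transcription starts that RefSeq lists for them (GRCm38.p6) were read, with CG dinucleotides in capitals, because CG-rich promoters are the usual targets of Polycomb complexes. Starts were listed for 5 of the 6 genes, 10 starts in all, and the first listed start is shown for 4 of them, 5′ to 3′ on the gene's strand.
Pdzph1 (chr17:58991376-58991625, minus strand): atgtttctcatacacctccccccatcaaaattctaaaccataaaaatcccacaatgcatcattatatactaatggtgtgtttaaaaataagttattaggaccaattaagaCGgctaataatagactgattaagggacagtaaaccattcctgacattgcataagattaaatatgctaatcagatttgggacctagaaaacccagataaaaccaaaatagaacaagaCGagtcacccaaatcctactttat
Prlr (chr15:10176988-10177237, plus strand): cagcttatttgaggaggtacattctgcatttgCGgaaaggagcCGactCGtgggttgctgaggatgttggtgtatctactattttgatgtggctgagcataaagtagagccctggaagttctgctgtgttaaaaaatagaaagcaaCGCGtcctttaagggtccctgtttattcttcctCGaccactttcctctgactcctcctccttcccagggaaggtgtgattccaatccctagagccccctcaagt
Lcp2 (chr11:34046678-34046927, plus strand): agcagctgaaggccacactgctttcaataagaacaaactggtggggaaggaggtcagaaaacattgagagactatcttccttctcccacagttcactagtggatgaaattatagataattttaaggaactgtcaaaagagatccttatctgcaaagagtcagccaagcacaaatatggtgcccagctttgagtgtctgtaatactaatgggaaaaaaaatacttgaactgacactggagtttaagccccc
Cyp19a1 (chr9:54268165-54268414, minus strand): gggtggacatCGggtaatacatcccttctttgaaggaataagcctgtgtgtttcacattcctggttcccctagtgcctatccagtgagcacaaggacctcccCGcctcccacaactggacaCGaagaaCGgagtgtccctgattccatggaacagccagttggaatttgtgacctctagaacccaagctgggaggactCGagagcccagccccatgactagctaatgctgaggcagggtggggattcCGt

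The number of CG dinucleotides varied. Pdzph1 had 2, Prlr 6, Lcp2 0 and Cyp19a1 6, and the first window of Nckap5 (chr1:126830633-126830882, partly inside the GENCODE gene and not printed) had 12. The last few bases of the printed Lcp2 window also lie inside the GENCODE gene. The median over all 32851 windows of the same length was 6, and 7.87% of windows had no CG at all, as Lcp2 did. A search for 4 short motifs covered both strands, and none overlapped a different one. TAATTG, a sequence bound by the oocyte homeobox factor NOBOX, was found in the windows of Pdzph1, of Nckap5 and of the second and last starts of Cyp19a1, and in 7.17% of all windows. CAGCTG, an E-box form, was found for Nckap5, Lcp2 and the second start of Prlr, and in 13.001% of all windows. The TATA box TATAAA was found only in those same 2 Cyp19a1 windows among the 10 (12.4% of all windows), and the GC box GGGCGG only at the second start of Nckap5 (32.7%). The deposited levels are per gene and do not tell which start was used.

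The members were not the 6 largest differences in oocytes. By the difference of mean log2(FPKM + 1) between genotypes in fully grown oocytes, Fam217a (-3.62) and Pdzph1 (-3.35) ranked 1 and 2 of the 15184 genes that reached 1 FPKM in 2 or more early libraries. Prlr ranked 8, Nckap5 11, Lcp2 20 and Cyp19a1, at -1.33, ranked 177. The next gene after Cyp19a1, E130311K13Rik, also differed by -1.33, with a mean of 4.01 FPKM in controls and 1.00 FPKM in knockouts. Between Pdzph1 and Cyp19a1 lay 171 other genes, led by the predicted genes Gm38706, Gm33370 and Gm5581, the zinc finger pseudogene Zfp813-ps and Gm7145. A knockout mean under 10% of a control mean of at least 5 FPKM was found for 18 of 7026 genes in fully grown oocytes (0.256%).

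**Figure D1:**
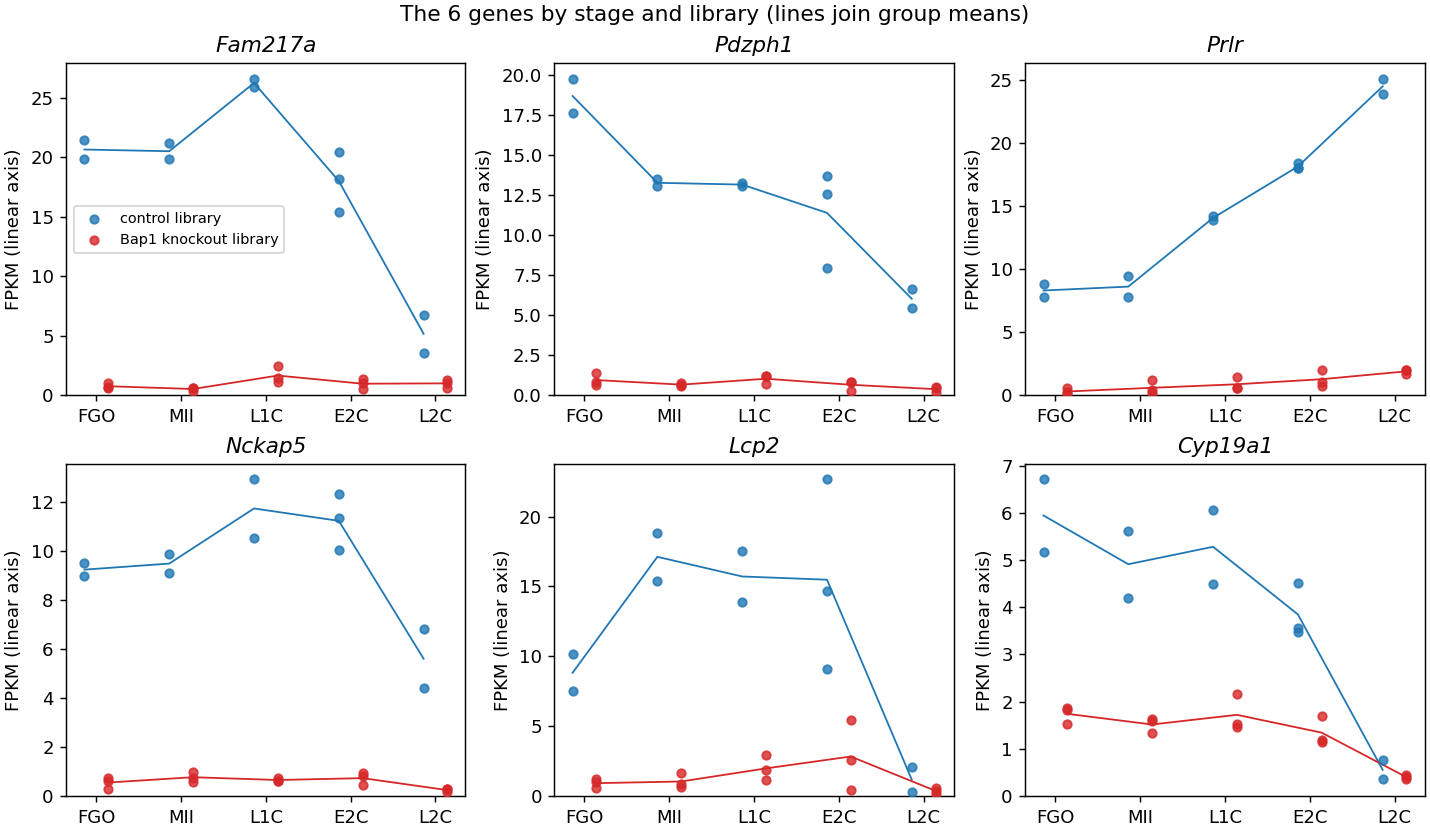
FPKM of the 6 genes in each of the 26 early libraries (points; blue, controls; red, Bap1 knockouts), with lines through group means and stages from fully grown oocyte (FGO) through MII egg, late 1-cell (L1C) and early 2-cell (E2C) to late 2-cell (L2C). Control levels of 5 genes drop at L2C while that of Prlr is highest there, at 23.9 and 25.1 FPKM, and the knockout libraries of Lcp2 and Cyp19a1 overlap the controls at L2C.

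From oocyte to zygote the 6 genes read low in every knockout group. The median over the 6 genes of the knockout level as a percentage of control was 5.51% in fully grown oocytes, 6.50% in MII eggs and 7.11% in late 1-cell embryos. In each of these stages every knockout library was below every control library for all 6 genes. That separation was seen for 24.1%, 21.9% and 20.9% of all genes tested, and it is part of how the members were chosen. It was also seen at the early 2-cell stage for 6 of 6 genes (15.1% of all genes), 3 of which were listed with their early 2-cell differences known, and at the late 2-cell stage for 4 of 6 (27.7%), with Lcp2 and Cyp19a1 the genes whose groups overlapped.

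Fam217a, an uncharacterised family gene, stood highest of the 6 in control oocytes. Control libraries of fully grown oocytes read 19.9 and 21.4 FPKM, and knockout libraries 0.677, 0.592 and 1.04 FPKM. The groups were far apart, with control levels above those of 79.5% of genes tested and knockout levels above those of 24.0%. Among control stages the late 1-cell level was highest, at 26.2 ± 0.509 FPKM (SD, n = 2), the oocyte, egg and early 2-cell libraries overlapped, and both late 2-cell libraries lay below all of these. Early 2-cell controls read 18.2, 20.4 and 15.4 FPKM against 1.00, 1.38 and 0.557 FPKM in knockouts. Late 2-cell controls read 3.56 and 6.77 FPKM against 0.656, 1.29 and 1.08 FPKM. The groups did not overlap at either stage, and the gap between the means went from 17.0 to 4.16 FPKM.

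Pdzph1, named for the PDZ and pleckstrin homology domains of its product, was the second highest in control oocytes. Fully grown oocytes read 17.6 and 19.8 FPKM in controls and 0.625, 1.38 and 0.859 FPKM in knockouts. Control levels were highest in the fully grown oocyte, were lower and overlapping in MII eggs (13.3 ± 0.317 FPKM, SD, n = 2), late 1-cell (13.2 ± 0.109 FPKM, SD, n = 2) and early 2-cell embryos, and were lowest in late 2-cell embryos. Early 2-cell controls read 12.6, 7.93 and 13.7 FPKM against 0.842, 0.845 and 0.296 FPKM in knockouts. Late 2-cell controls read 5.44 and 6.63 FPKM against 0.523, 0.445 and 0.195 FPKM. Every knockout library was thus below every control library by a wide margin, and the knockout level as a share of control was 5.80% early and 6.42% late.

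Prlr encodes the prolactin receptor, a cytokine receptor that signals through the kinase JAK2 and STAT factors. It read 7.80 and 8.82 FPKM in control and 0.113, 0.581 and 0.230 FPKM in knockout fully grown oocytes. It was the 1 gene of the 6 whose control level was higher at each later stage after the egg. Control means were 8.31 FPKM in fully grown oocytes and 8.62 FPKM in MII eggs, whose libraries overlapped, then 14.1 FPKM in late 1-cell, 18.1 FPKM in early 2-cell and 24.5 FPKM in late 2-cell embryos, with no overlap between these last groups. Early 2-cell controls read 18.02, 18.4 and 18.03 FPKM against 0.739, 1.07 and 2.03 FPKM in knockouts. Late 2-cell controls read 23.9 and 25.1 FPKM against 2.01, 1.99 and 1.71 FPKM. The groups stayed apart, and the gap between the means was 8.01 FPKM in fully grown oocytes and 22.6 FPKM in late 2-cell embryos. The knockout mean was also higher late, at 0.308 FPKM in fully grown oocytes and 1.91 FPKM in late 2-cell embryos. As a share of control it was 3.70% and 7.78%, so the gap was wider in FPKM but not in proportion.

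Nckap5, named as a partner of the adaptor protein NCK, read 8.96 and 9.49 FPKM in control and 0.284, 0.628 and 0.724 FPKM in knockout fully grown oocytes. Up to the early 2-cell stage its control means lay between 9.22 FPKM in fully grown oocytes and 11.7 FPKM in late 1-cell embryos, with overlap between oocytes and eggs and between late 1-cell and early 2-cell embryos. Early 2-cell controls read 12.3, 11.3 and 10.03 FPKM against 0.916, 0.433 and 0.829 FPKM in knockouts. Late 2-cell controls read 4.38 and 6.81 FPKM against 0.279, 0.271 and 0.164 FPKM. No knockout library of any early stage passed 0.970 FPKM, and the late 2-cell knockout mean was 4.25% of control, the smallest share among the 6 genes at that stage.

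Lcp2 encodes SLP-76, an adaptor that links antigen receptors to phospholipase C in T cells, mast cells and platelets. Its libraries were widely spread. Fully grown oocytes read 10.1 and 7.48 FPKM in controls and 0.556, 1.00 and 1.18 FPKM in knockouts, and MII eggs read 18.8 and 15.4 FPKM against 0.632, 0.849 and 1.62 FPKM. Early 2-cell controls read 22.7, 14.7 and 9.12 FPKM against 5.46, 2.58 and 0.422 FPKM in knockouts, so the groups did not overlap but both were spread out. Late 2-cell controls read 0.250 and 2.08 FPKM against 0.172, 0.591 and 0.336 FPKM, and here the lower control lay among the knockouts. In controls the egg, late 1-cell and early 2-cell libraries overlapped, those of fully grown oocytes overlapped early 2-cell ones alone, and late 2-cell libraries lay below all. The antisense gene 4930469K13Rik overlaps Lcp2, and 4.74% of the 50-base words of Lcp2 transcripts occur in other genes. That antisense gene read 3.73 FPKM in control and 2.57 FPKM in knockout fully grown oocytes, and whether counting used the strand is not given in the sources used here. The part of either in the Lcp2 values was not tested.

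Cyp19a1 encodes aromatase, the enzyme that turns androgens into oestrogens, best known in the granulosa cells around the oocyte. Fully grown oocytes read 6.72 and 5.16 FPKM in controls and 1.83, 1.52 and 1.87 FPKM in knockouts. Control levels of fully grown oocytes, MII eggs and late 1-cell embryos overlapped, early 2-cell ones overlapped the last of these and the eggs, and late 2-cell ones lay below all. Early 2-cell controls read 4.52, 3.55 and 3.46 FPKM against 1.19, 1.69 and 1.14 FPKM in knockouts. Late 2-cell controls read 0.751 and 0.352 FPKM against 0.353, 0.394 and 0.447 FPKM. The late groups overlapped, with 1 control library at the knockout level. Up to early 2-cell the knockout level was a steady share of control, from 29.3% to 34.9%, the highest share among the 6 genes at each stage.

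**Figure D2:**
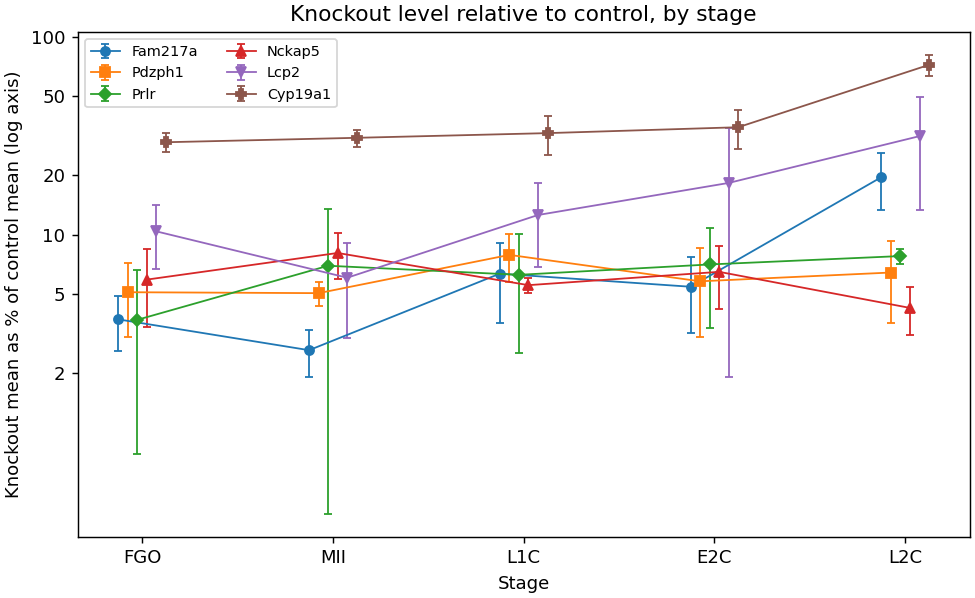
Knockout mean as a percentage of the control mean (log axis) for the 6 genes at 5 stages, with bars of ± 1 SD over the 3 knockout libraries. Cyp19a1 runs near 30% to E2C and reaches 72.1% at L2C, Fam217a goes from 5.44% to 19.5% between E2C and L2C, and Nckap5, Pdzph1 and Prlr stay under 10% at every stage.

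Early 2-cell values were not in the rule that chose the genes, but Fam217a, Prlr and Pdzph1 were already known from these libraries as large early 2-cell differences when the genes were listed. Their differences are therefore given as a description with no test. Knockout minus control, in log2(FPKM + 1), a scale that shrinks differences of low genes, was -3.28 ± 0.21 (SE) for Fam217a, -3.11 ± 0.22 for Prlr and -2.89 ± 0.19 for Pdzph1. The other 3 genes were all lower in the maternal knockout, where 14.9% of 15184 genes tested were lower by the same test. Nckap5 differed by -2.83 ± 0.16 (limma, Benjamini-Hochberg adjusted p = 1.07e-10), Lcp2 by -2.28 ± 0.41 (3.01e-04) and Cyp19a1 by -1.05 ± 0.16 (3.89e-05). These 3 had been low in the knockout at the stages before, which is how they were chosen. Nckap5 reached the minimum of 1 FPKM for testing in control libraries alone. On the linear scale, means of the 6 genes were between 2.87-fold (Cyp19a1) and 18.4-fold (Fam217a) lower.

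In late 2-cell embryos Prlr differed by -3.13 ± 0.25, a value already known when the genes were listed and so given with no test. Of the other 5 genes 3 were lower, where 20.9% of all genes tested were. Nckap5 differed by -2.39 ± 0.17 (limma, Benjamini-Hochberg adjusted p = 1.67e-09), Pdzph1 by -2.34 ± 0.21 (2.50e-08) and Fam217a by -1.58 ± 0.23 (1.22e-05). Here too Nckap5 reached the minimum of 1 FPKM for testing in control libraries alone, and the count of 3 includes it. The differences of Lcp2 (-0.53 ± 0.46, limma, Benjamini-Hochberg adjusted p = 0.382) and Cyp19a1 (-0.14 ± 0.17, adjusted p = 0.561) did not pass. The size of both differences depended on which control libraries were kept, though neither passed in any alternative fit that kept both. Without control replicate 2 the difference of Lcp2 was 0.12, and without control replicate 1 it was -1.18. For Cyp19a1 the knockout mean was 113% or 53.0% of control, depending on which of the 2 control libraries was left out, and for Lcp2 146% or 17.6%.

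Whether the genes recovered was asked by the change from early to late 2-cell within each genotype. These comparisons share the early and late 2-cell libraries with those above. In controls 5 of the 6 genes fell, against 27.7% of all genes tested. Genes low in control oocytes are in that share but could not have shown a large loss there. The share is therefore not a like background for genes chosen on such a loss. The early differences of Fam217a, Prlr and Pdzph1, known when the genes were listed, use the same early controls. Lcp2 fell by 2.98 ± 0.46 (limma, Benjamini-Hochberg adjusted p = 9.44e-06), Fam217a by 1.66 ± 0.23 (1.99e-06), Cyp19a1 by 1.65 ± 0.17 (4.90e-08), Nckap5 by 0.91 ± 0.17 (1.15e-04) and Pdzph1 by 0.79 ± 0.21 (0.00254). With a pseudocount of 0.1 Pdzph1 lost its call (limma adjusted p = 0.0543), which left 4 of 6. Prlr was higher by 0.41 ± 0.25, which did not pass (limma, Benjamini-Hochberg adjusted p = 0.160).

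In knockout embryos 0 of the 6 genes rose by limma at either the adjusted or the unadjusted threshold of 0.05, against 32.6% of all genes tested that rose at the adjusted one. Bap1 rose over the same interval, as given above. Cyp19a1 (-0.74 ± 0.16, limma, Benjamini-Hochberg adjusted p = 3.96e-04), Nckap5 (-0.47 ± 0.16, 0.0142) and Lcp2 (-1.24 ± 0.41, 0.0146) fell further, 3 of 6 against 23.5% of all genes tested. Nckap5 passed the filter of 1 FPKM through control libraries alone. Its knockout means here, 0.726 FPKM early and 0.238 FPKM late, lie under that minimum. So do all 2-cell knockout libraries of Pdzph1, at 0.845 FPKM or less. The counts of genes that rose or fell include both genes and are a description only. Changes of Fam217a (0.03 ± 0.21, adjusted p = 0.925, limma), Pdzph1 (-0.25 ± 0.19, 0.274) and Prlr (0.39 ± 0.22, 0.148) did not pass. The fall of Lcp2 rested on the early knockout library at 5.46 FPKM, without which it was -0.74 (limma adjusted p = 0.129), and that of Nckap5 was -0.39 without the same library (adjusted p = 0.0624). Without early knockout replicate 3, which read 2.03 FPKM for Prlr, the change of Prlr was 0.61 and passed (limma adjusted p = 0.0279).

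The gap between genotypes was smaller late than early for 3 of the 6 genes by the test of that difference, against 15.5% of all genes tested. The difference of the 2 knockout effects was 1.74 ± 0.62 for Lcp2 (limma, Benjamini-Hochberg adjusted p = 0.0384), 1.69 ± 0.31 for Fam217a (2.56e-04) and 0.91 ± 0.23 for Cyp19a1 (0.00540). For each of the 3 genes the control level fell while the knockout level fell or had a change near 0, so the gap closed from the control side. The large early effect of Fam217a was known when it was listed, so neither its value nor its place in the count of 3 is independent support. The difference of the 2 effects did not pass for Pdzph1 (0.54 ± 0.28, adjusted p = 0.157, limma), Nckap5 (0.44 ± 0.23, 0.168) or Prlr (-0.03 ± 0.33, 0.966). Lcp2 lost its call when the 2-cell libraries were fitted alone (1.74, adjusted p = 0.141), with a pseudocount of 0.1 (1.87, 0.194), with no filter (0.0974), with TPM scaling (1.87, 0.118) and in 6 of the 11 fits that left out 1 library, down to 1.09 without late control replicate 1. Cyp19a1 lost it without late control replicate 2 (0.72, limma adjusted p = 0.0502). Without that library Nckap5 passed (0.71, 0.0424), and without early control replicate 2 Pdzph1 did (0.76, 0.0308).

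**Figure D3:**
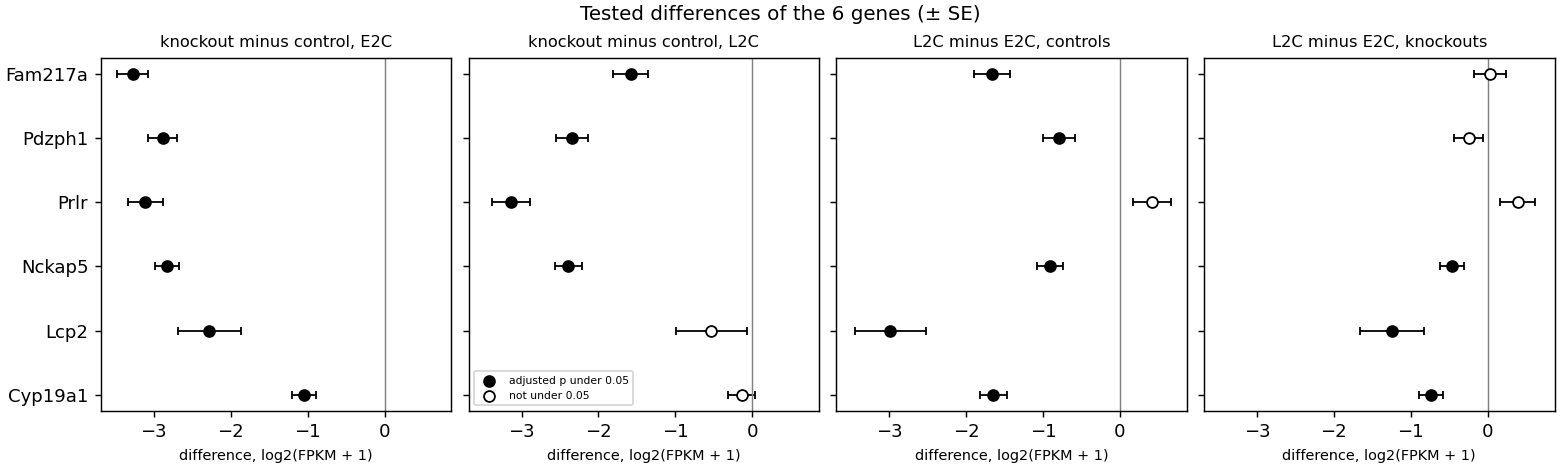
Differences on the log2(FPKM + 1) scale with ± SE for the 6 genes, in panels for knockout minus control at E2C and at L2C and for L2C minus E2C in controls and in knockouts; filled points have an adjusted p under 0.05. At E2C all 6 points lie left of 0, at L2C those of Lcp2 (-0.53) and Cyp19a1 (-0.14) are open, and in the knockout panel no filled point lies right of 0. The E2C points of Fam217a, Prlr and Pdzph1 and the L2C point of Prlr were known when the genes were listed. Their fill is a description and not a test. Nckap5 passed the filter through control libraries alone.

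At embryonic day 6.5 the genes were low in both genotypes. These are poly(A) libraries in a table of their own, so levels are not compared with the earlier stages. Only Prlr reached 1 FPKM in at least 2 of the 8 epiblast and visceral endoderm libraries and was tested. In epiblast it read 0.845 and 0.703 FPKM in controls and 0.400 and 2.34 FPKM in knockouts, and in visceral endoderm 1.31 and 2.09 FPKM against 0.753 and 0.794 FPKM. The epiblast groups overlapped. In visceral endoderm both knockouts lay below both controls, but neither difference passed: 0.29 ± 0.43 in epiblast (limma, Benjamini-Hochberg adjusted p = 1, unadjusted 0.520) and -0.59 ± 0.43 in visceral endoderm (adjusted p = 1, unadjusted 0.202). In epiblast 1 knockout library set the sign: the difference was -0.34 without knockout replicate 2 and 0.91 without knockout replicate 1. In visceral endoderm it was -1.01 with a pseudocount of 0.1 and -0.38 without control replicate 2, and it passed in none of these. By the same test 0.0% of 13376 genes were called in epiblast, with 89 lower and 217 higher at an unadjusted p under 0.05, and 0.00748% in visceral endoderm. Prlr did not differ between the 2 lineages past the threshold either (-0.15 ± 0.30, limma adjusted p = 0.726), where 36.6% of genes did.

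Extraembryonic ectoderm has 1 control library, so its values have no test. Prlr read 0.745 FPKM in that control and 0.110 and 0.151 FPKM in the knockouts. The other 5 genes were at or near 0 in all 3 lineages. Pdzph1 was the highest of them, with 0.239 and 0.579 FPKM in knockout and 0 and 0.245 FPKM in control epiblast, and Nckap5 reached 0.155 FPKM, Cyp19a1 0.109 FPKM, Fam217a 0.0711 FPKM and Lcp2 0.0213 FPKM in single libraries. Marker sums set visceral endoderm apart from the other lineages: 5 visceral endoderm markers summed to at least 6902 FPKM in that lineage and to at most 13.98 FPKM in the others. Extraembryonic ectoderm was set apart by its own markers, which summed to 341 to 457 FPKM there and to at most 28.5 FPKM in the others. Epiblast markers summed to 892 to 1362 FPKM in epiblast, but also to 408 to 505 FPKM in extraembryonic ectoderm.

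**Figure D4:**
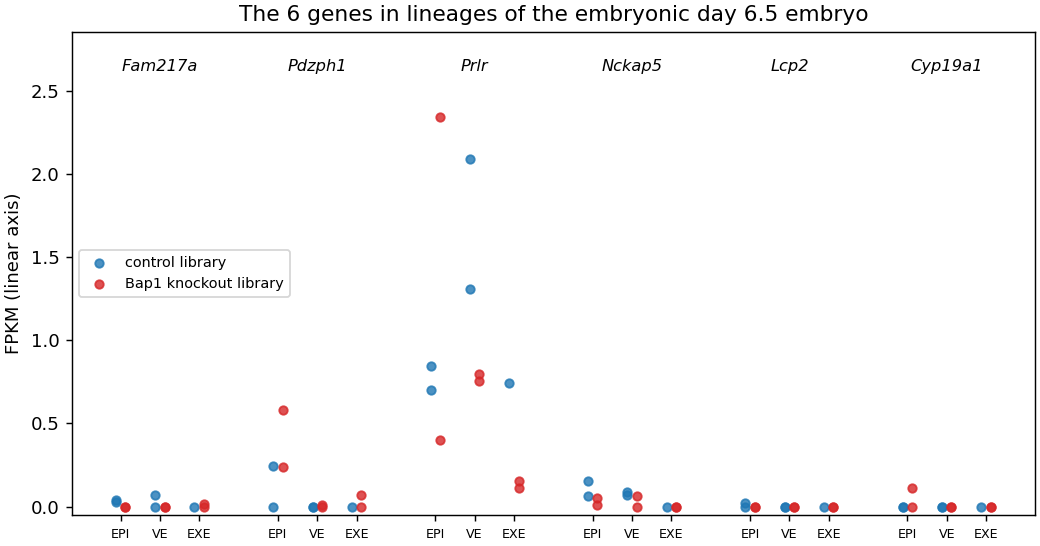
FPKM of the 6 genes in each of the 11 embryonic day 6.5 libraries of 3 lineages (EPI, epiblast; VE, visceral endoderm; EXE, extraembryonic ectoderm), controls in blue and maternal knockouts in red. Prlr is the gene with libraries above 1 FPKM, its highest value of 2.34 FPKM being a knockout epiblast library, and the other genes stay under 0.6 FPKM.

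Genes of the pathways around Prlr, Cyp19a1 and Lcp2 were called in both directions. Of 15 prolactin signalling genes, 11 were tested. In early 2-cell embryos 2 were lower, the STAT inhibitor Socs2 (-1.21 ± 0.18, limma, Benjamini-Hochberg adjusted p = 3.09e-05) and the adaptor Grb2 (-0.41 ± 0.13, 0.0213), and 1 was higher, the phosphatase gene Ptpn11 (0.32 ± 0.06, 4.38e-04). Of all genes tested 14.9% were lower and 14.1% higher. The median difference of the 11 was -0.29, against 0.00 for all genes. In late 2-cell embryos Socs3 (-2.49 ± 0.27, limma adjusted p = 3.89e-07) and Sos1 (-1.28 ± 0.16, 2.41e-06) were lower and Stat3 (0.40 ± 0.16, 0.0445) was higher, with a median of -0.07 against 0.03. Of all genes 20.9% were lower and 21.3% higher. The counts lower are near the shares over all genes. The receptor's kinase Jak2 was abundant in every early library, at 120 to 306 FPKM, and passed in neither stage. Its ligand gene Prl was listed at 0 in all 26 libraries, Stat5a averaged 1.24 FPKM and Stat5b did not pass 0.0546 FPKM.

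Of 17 genes of steroid hormone synthesis and steroid receptors, 10 were tested. One was lower in early 2-cell embryos, the orphan nuclear receptor Nr5a2 (-0.62 ± 0.13, limma, Benjamini-Hochberg adjusted p = 0.00116), and 0 were higher, where 14.9% of all genes tested were lower and 14.1% higher. Late, 3 were lower, namely Nr5a2 (-0.63 ± 0.15, limma adjusted p = 0.00150), the reductase genes Srd5a1 (-0.61 ± 0.16, 0.00468) and Por (-0.52 ± 0.21, 0.0472), and the oestrogen receptor gene Esr2 was higher (0.34 ± 0.13, 0.0392), where the shares of all genes were 20.9% and 21.3%. Medians were -0.02 early and -0.08 late, against 0.00 and 0.03 for all genes. These counts are near the shares over all genes. The enzymes upstream of aromatase were hardly present: the cholesterol side-chain cleavage gene Cyp11a1 did not pass 0.341 FPKM and Cyp17a1 did not pass 0.767 FPKM in any early library. Receptors for its product were, with mean levels of 8.67 FPKM for Esr2 and 7.33 FPKM for Esr1.

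Of 23 genes around SLP-76, 14 were tested. In early 2-cell embryos 2 were lower (the kinase gene Lyn, -0.57 ± 0.19, limma adjusted p = 0.0269, and the adaptor Skap2, -0.48 ± 0.12, 0.00444) and 2 were higher (the phospholipases Plcg1, 0.64 ± 0.14, 0.00199, and Plcg2, 0.58 ± 0.13, 0.00140). Late, the kinase gene Lck (-2.82 ± 0.16, limma adjusted p = 7.53e-11) and the adaptor Lat2 (-0.92 ± 0.25, 0.00519) were lower, while Plcg2, Skap1 and Skap2 were higher by 0.71, 0.44 and 0.58. Over all genes tested 14.9% were lower and 14.1% higher early, and 20.9% and 21.3% late, so these counts are near that background. Medians were 0.01 early and 0.14 late, against 0.00 and 0.03 for all genes. Fyn, at a mean of 62.5 FPKM, and Skap1, at 50.1 FPKM, were the most abundant, whereas the partners Zap70, Grap2 and Lat averaged 0.415, 0.0886 and 0.0495 FPKM. All genes named in these 3 lists other than the most abundant ones were chosen after their values were seen.

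Cyp19a1 is a granulosa cell gene and Lcp2 a blood cell gene, so markers of those cells were read in the same libraries. The 15 granulosa and cumulus markers summed to 4.35 to 5.69 FPKM in control and 3.28 to 4.58 FPKM in knockout fully grown oocytes, ranges that overlap. In MII eggs the sums were 1.84 to 1.89 FPKM in controls and 1.35 to 1.43 FPKM in knockouts. In late 1-cell embryos they were 1.70 to 1.98 FPKM against 0.883 to 1.56 FPKM, and at both stages the ranges did not overlap. Lhcgr, the luteinizing hormone receptor gene, was at 0 in all 26 libraries and Fshr did not pass 0.170 FPKM, with 13 libraries at 0. In early 2-cell embryos the sum was 3.65 to 4.68 FPKM in controls and 1.05 to 2.55 FPKM in knockouts, and in late 2-cell embryos 19.8 to 20.02 FPKM against 6.66 to 9.91 FPKM. Of the 3 markers tested, 2 were lower in each of these stages (14.9% of all genes early and 20.9% late). These were Gja1 in both (-0.82 ± 0.19 early, limma adjusted p = 0.00234), Kitl early and Amhr2 late. In controls Amhr2 rose by 3.31 and Gja1 by 1.83 from early to late 2-cell, an interval in which Cyp19a1 fell. The part of granulosa cells in the Cyp19a1 values was not tested. The 11 blood cell markers summed to 0.927 to 1.18 FPKM in control and 0.631 to 1.16 FPKM in knockout fully grown oocytes. Cd52 and Tyrobp were at 0 in all 26 libraries, and the pan-leukocyte gene Ptprc was at 0 in 25. The 12 oocyte markers summed to 3706 to 3892 FPKM in control and 3323 to 3663 FPKM in knockout fully grown oocytes, ranges that did not overlap. At the early 2-cell stage the sums overlapped, at 1065 to 1360.5 FPKM in controls and 1010.1 to 1309 FPKM in knockouts, and at the late 2-cell stage the knockouts lay higher, at 841 to 968 FPKM against 508 to 533 FPKM. Of the 11 markers tested, 5 were higher and 0 lower early (14.1% and 14.9% of all genes), led by Figla, with a median difference of 0.28 against 0.00 for all genes. Late, 8 were higher and 1, Zp3, lower (21.3% and 20.9% of all genes), with a median of 0.66 against 0.03. The part of this difference in the 2-cell values of the 6 genes was not tested.

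The nearest protein-coding genes on each side were mostly too low to test. Of 12 neighbours 3 were testable. Prpf4b, a kinase gene 3896 bases from Fam217a, had means of 7.61 FPKM in control and 6.65 FPKM in knockout fully grown oocytes, and was lower in late 2-cell embryos (19.5 against 6.33 FPKM, -1.43, limma adjusted p = 2.32e-06) but did not pass early (-0.30, 0.184). Mgat5, a glycosyltransferase gene 374216 bases from Nckap5, was higher in early 2-cell knockouts (1.22, limma adjusted p = 9.84e-06). Lypd1, 519 bases from Nckap5 on the other side, did not pass there (0.67, limma adjusted p = 0.146). Among the other 9, the highest group mean was 1.28 FPKM, in control late 2-cell embryos for Nudt12 next to Pdzph1.

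Levels of the 6 genes went together across the 26 early libraries, which share the genotype split that chose them. The Pearson correlation of log2(FPKM + 1) between members ran from 0.42 (Prlr and Cyp19a1) to 0.97 (Pdzph1 and Nckap5), given as a description. The 3 genes most like Fam217a by this measure, leaving out predicted and clone-named models, were Lpl, Entpd1 and Arl13b, each at 0.98. For Pdzph1 they were Mrc1, Fras1 and Dsg1a, and for Nckap5 Mrc1, Lpl and Il23r, again each at 0.98. Prlr was matched best by Dtx3l (0.97), Zfp984 and Ctnnd1 (both 0.96), Lcp2 by Nckap1l, Etl4 (both 0.95) and Zfp813-ps (0.93), and Cyp19a1 by Fam161a (0.97), Lama4 (0.96) and Top2b (0.95).

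These genes were picked for following a member over the same 26 libraries, 2-cell ones included, so a low level in knockouts follows from the choice and their values are given with no test. Mrc1 had means of 6.22 FPKM in control and 0.129 FPKM in knockout fully grown oocytes, and in late 2-cell embryos 2.94 against 0.138 FPKM. Il23r, a cytokine receptor gene, read 4.51 against 0.145 FPKM and then 3.34 against 0.0999 FPKM. Nckap1l, a WAVE complex gene of blood cells matched to Lcp2, differed by -0.93 ± 0.11 (SE) on the log2(FPKM + 1) scale in early and by -0.04 ± 0.13 in late 2-cell embryos, where its control mean was 0.666 FPKM. Zfp984, a zinc finger gene matched to Prlr, kept high control levels to the late 2-cell stage, at 12.8 FPKM against 3.68 FPKM in knockouts.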

How the data were processed

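Per the labels, RNA of oocytes and early embryos was sequenced as total RNA (SMART-Seq Stranded kit, 26 libraries) and that of embryonic day 6.5 lineages as poly(A) RNA (SMART-Seq mRNA with Nextera XT, 11 libraries). The deposited values are FPKM per gene, 1 column per library. Per the submitters' processing notes, Trim Galore 0.6.6, STAR 2.7.9, StringTie 2.1.7 and mm10 were used, and their settings are not given in the sources used here. In the deposited column of control epiblast replicate 1, 1 value just below 0 was set to 0. Reads could not be recovered from FPKM, so depth is unknown and no counting intervals are given. The number of libraries limits the precision.

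The members, the gene lists and the tests were chosen with earlier results of these data known. Groups follow the titles. Genes that reached 1 FPKM in 2 or more libraries fitted were compared as log2(FPKM + 1) by limma 3.58.1 under R 4.3.3 (linear fit, empirical Bayes with trend), with Benjamini-Hochberg adjustment over all genes and a threshold of 0.05. The 26 early libraries shared 1 fit, because most control groups hold 2, and the 8 epiblast and visceral endoderm libraries apart. The fit was also run on simulated data with independent normal noise and changes set only in genes of higher control level. That run did not cover changes in genes near the floor or deviations shared by libraries. Genes were named by rule: Bap1, the members, the 3 genes most correlated with each, the nearest coding genes, the 4 most abundant of each list, and up to 5 other genes with larger oocyte differences, with exceptions stated. Motifs and CG dinucleotides were counted in RefSeq promoters. Alternatives were another pseudocount, filter, scaling, set of libraries and replicate block, and leaving out each library.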

Additional observations from a re-analysis of the deposited data

Results flagged for a closer look

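The effect of the maternal knockout differed between early and late 2-cell embryos for 3 of the 6 genes by the interaction test of limma with Benjamini-Hochberg adjustment. The late effect minus the early effect was 1.69 for Fam217a, 1.74 for Lcp2 and 0.91 for Cyp19a1 on the log2(FPKM + 1) scale. The early effect of Fam217a was known when it was listed, so its place among the 3 is not independent support. In each the control level fell, and the knockout level fell by less or had a change near 0. No group of 4 or more libraries was available to look for single outlying libraries.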

How the results depend on the processing

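In early 2-cell embryos all 6 genes, and in late 2-cell embryos the same 4, were lower in the knockout under every alternative run, and 0 results changed direction past the threshold. In the main fit 14.9% of all genes tested were lower early and 20.9% late. The early values of Fam217a, Prlr and Pdzph1 and the late value of Prlr were known when the genes were listed. Nckap5 passed the filter through control libraries alone. For these 4 genes the stability describes the processing and is not independent support. The fit with the replicate block changed no call of the 6 genes. Same-numbered libraries deviated together at r from -0.08 to 0.14 in early groups, so the numbers were not taken to pair the samples. At embryonic day 6.5 r was higher, at 0.59 in epiblast and 0.43 in visceral endoderm, and the main tests there did not pair the samples either. In epiblast the block gave 2 higher and 2 lower genes, as against 0 and 0.

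Fitting the libraries of a contrast alone called 501 genes higher and 692 lower in early 2-cell embryos (2146 and 2261 with all early libraries), 1238 and 1108 for the difference of effects (2361 and 2261), and 1 of the 6 genes for the change within knockouts (3), where leaving out 1 library gave 1 to 4. A mean of at least 5 FPKM left 3282 genes rising within knockouts (4957) and 1714 higher in epiblast than visceral endoderm (2710, or 1784 to 2946 leaving out 1 library). In epiblast a pseudocount of 0.1 and the libraries alone each gave 2 higher and 1 lower. In visceral endoderm 1 gene was lower, 0 without a filter, with 1 higher from its libraries alone and 0 to 1 higher and 0 to 2 lower leaving out 1 library.

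Scaling moved the split of calls. Early 2-cell calls were 2961 higher and 2076 lower with TPM and 2899 and 1744 with median centring, and late ones 4185 and 2512 with TPM (3238 and 3181). Within knockouts they were 3401 and 5988 with median centring and 4018 and 5264 with quantile normalization (4957 and 3564), and within controls 3991 and 5840 with median centring (5060 and 4211). After median centring the median change of all genes between the 2-cell stages was -0.23 in controls and -0.24 in knockouts (0.02 and 0.06 without it). Pdzph1 then passed within knockouts (-0.55, limma adjusted p = 0.0154). With a pseudocount of 0.1 its fall in controls did not (-0.88, adjusted p = 0.0543), and from the libraries alone Prlr rose in controls (0.41, 0.0191). TPM scaling without Gm23935 was added after seeing the data. The cause was not tested. Depth is unknown, and 2 control libraries limit most groups.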
